A study of Mus musculus with 11 samples.

Results

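Immediate early transcription factors are the genes that a cell transcribes within minutes of a stimulus, without first making new protein. The 10 genes described here are Fos, Fosb, Jun, Junb, Egr1, Egr2, Egr3, Atf3, Ier2 and Nr4a1. They were chosen by name, as the rows whose mouse Ensembl identifiers carry these symbols, and all 10 were found among the 21899 genes measured. RNA-seq was performed on bluntly dissected airway of WT male BALB/c mice, which were young adults when obtained. The 3 PBS libraries came from mice that were not sensitised and received PBS alone. The OVA/LPS/Vehicle group (4 libraries) and the OVA/LPS/GGsTop group (4 libraries) came from mice sensitised to ovalbumin (OVA) with alum, challenged with OVA through the nose, and then given bacterial lipopolysaccharide (LPS) by the same route. From the day of the last LPS dose these mice received either vehicle or GGsTop, an inhibitor of γ-glutamyl transferase, into the trachea. The tissue was taken some days after the last LPS dose, so minutes-scale induction by LPS itself was not sampled. The PBS group lacks sensitisation, OVA, LPS and the intratracheal vehicle alike, and these cannot be told apart. The labels name the tissue as trachea, whereas the methods describe airway freed of trachea. The OVA/LPS/Vehicle libraries carry the numbers 12, 34, 56 and 78, and no source says if a number such as 12 marks pooled mice. They are called vehicle 12 to 78 below, and the OVA/LPS/GGsTop libraries are called GGsTop 1 to 4.

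Fos and Fosb proteins pair with Jun and Junb to form AP-1, a dimeric factor that binds DNA at AP-1 sites. Atf3 is a related leucine zipper factor induced by stress that often represses its targets. Egr1, Egr2 and Egr3 are zinc finger factors that bind GC-rich sites, Nr4a1 is an orphan nuclear receptor, and Ier2 is a small nuclear protein. Mitogens, stretch, wounding and dissection of tissue raise these transcripts through serum response factor and CREB, and the transcripts decay quickly. In airway they are known to be expressed in epithelium, muscle, vessels and leukocytes.

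The promoters of these genes are shown because the 10 genes are known for shared control at the start site, and because several of them varied together across the libraries. RefSeq windows on GRCm38.p6 were at hand for 7 of the 10 genes, the others being Egr1, Egr3 and Ier2. The 250 bases before each start were searched on both strands. The core of the cAMP response element, TGACG or its complement CGTCA, was present for 6 of the 7 genes (all but Jun), against 19.8% of 27025 genes with a window. Nr4a1 had 4 copies and Fos had 2 in these 250 bases. Egr2 had several RefSeq starts, and those at 67535499 and 67537566 had no copy. A gene was counted if any of its windows had the core. The windows of the 7 genes had a GC content of 54% to 74.4%, and the background was not matched for this. The stretches from 140 to 11 bases before the start are printed 5′ to 3′ on the strand of the gene, with this core in capitals. Fos lies at chr12:85473750-85473879 on the plus strand, Fosb at chr7:19310056-19310185 on the minus strand, Junb at chr8:84978759-84978888 on the minus strand, Egr2 at chr10:67537729-67537858 on the plus strand, Nr4a1 at chr15:101266706-101266835 on the plus strand and Jun at chr4:95052233-95052362 on the minus strand. None of these 6 stretches overlapped an annotated exon.
Fos: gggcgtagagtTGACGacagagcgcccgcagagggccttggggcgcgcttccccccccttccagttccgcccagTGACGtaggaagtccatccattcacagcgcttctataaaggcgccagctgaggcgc
Fosb: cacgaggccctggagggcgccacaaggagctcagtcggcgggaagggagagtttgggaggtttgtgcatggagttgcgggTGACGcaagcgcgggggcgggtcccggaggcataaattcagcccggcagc
Junb: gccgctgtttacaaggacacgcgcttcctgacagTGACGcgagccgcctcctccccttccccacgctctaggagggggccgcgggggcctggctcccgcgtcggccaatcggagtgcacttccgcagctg
Egr2: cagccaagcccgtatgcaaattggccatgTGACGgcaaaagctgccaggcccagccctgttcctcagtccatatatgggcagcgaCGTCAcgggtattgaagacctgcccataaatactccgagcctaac
Nr4a1: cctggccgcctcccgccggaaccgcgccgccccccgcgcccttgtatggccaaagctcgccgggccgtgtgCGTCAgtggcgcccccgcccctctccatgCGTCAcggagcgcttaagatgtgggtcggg
Jun: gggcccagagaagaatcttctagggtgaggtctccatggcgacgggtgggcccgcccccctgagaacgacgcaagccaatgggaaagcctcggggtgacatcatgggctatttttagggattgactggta
The whole palindrome TGACGTCA was in none of the 7 genes, against 1.77% of all genes. The AP-1 site TGACTCA was likewise in none of them, against 5.16%. The CArG box, which serum response factor binds, was matched for Egr2 alone, against 1.62% of genes. The TATA box letters TATAAA were matched for Fos alone, against 14.3%, and the GC box letters GGGCGG for 6 genes (all but Junb), against 35.4%. These matches are letters in a window and were not tested as binding sites. Only these patterns were searched, so no match says nothing of a variant site in the window or of a factor acting elsewhere.

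Values are FPKM, in which fragments are divided by the length of a gene's exons and by library size, so levels can be compared between genes per length. The fragments behind the libraries, recovered from the spacing of the FPKM values, numbered 14513131 to 18632382. Among the 9 genes for which whole fragments were recovered (all but Ier2), the smallest value rested on 50 fragments and the largest on 7260. Club cell and ciliated cell markers were present in every library, with summed FPKM from 28022 to 50663 and from 258 to 489, so conducting airway was sampled throughout. Its share was not shown to be alike between groups. The ciliated markers Foxj1 (21.2 to 35.3 FPKM in PBS, 61.4 to 92.5 in vehicle), Dnah5 and Ccdc39 were wholly higher in vehicle than in PBS. Tppp3, the most abundant ciliated marker, overlapped between these groups. A pair of libraries stood apart. PBS 2 was the highest library for 6 of the 10 genes, and PBS 3 for 3 others. The slope of log2 level on transcript GC content was 0.53 per 10 percentage points in PBS 3, from 0.05 to 0.11 in PBS 1, PBS 2 and the GGsTop libraries, and from -0.26 to -0.19 in the vehicle libraries. Mitochondrial transcripts took 14.5% to 19.5% of FPKM in the vehicle libraries, above the 2.08% to 10.1% in PBS and the 7.40% to 11.1% in GGsTop with no overlap, and their part in the results was not tested. All 10 genes have a GC content above the median of the genes tested, from 51.3% in Egr3 to 62.6% in Junb against 49.9%, so values corrected for GC content are given beside the deposited ones. Fewer cells of a type and less RNA per cell cannot be told apart in such bulk tissue.

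**Figure D1:**
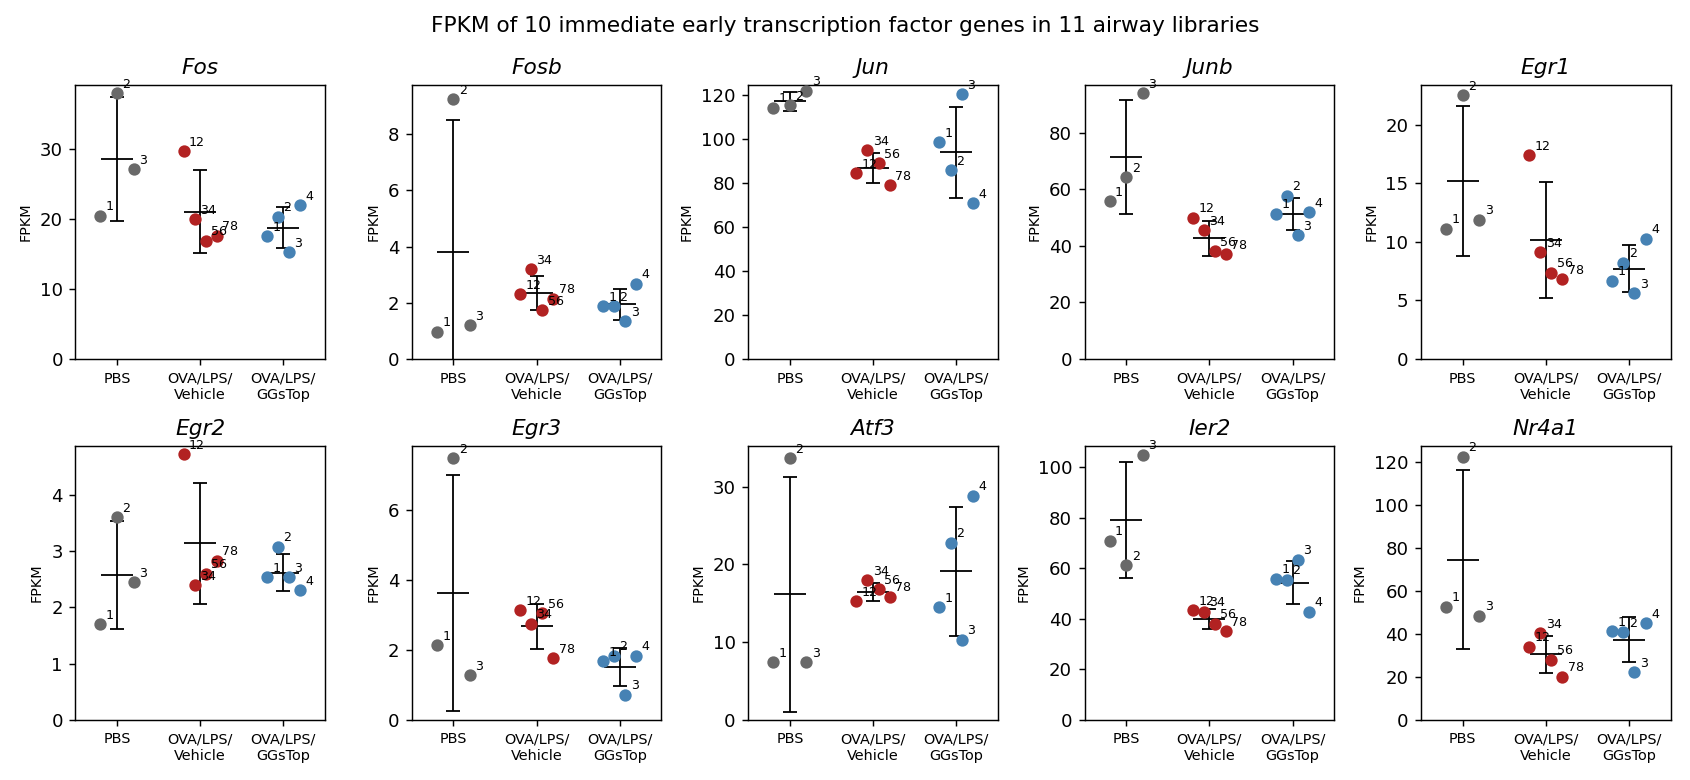
FPKM of the 10 genes in each library, with the library number beside each point and the horizontal bar and whiskers giving the group mean and SD (n = 3 or 4; each axis starts at 0, and the lower whisker of Fosb in PBS is clipped there). PBS 2 is the highest point for Fos, Fosb, Egr1, Egr3, Atf3 and Nr4a1, and all 4 vehicle libraries lie below all 3 PBS libraries for Jun, Junb, Ier2 and Nr4a1.

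Of the AP-1 subunits, Jun and Junb were high in every library and Fos and Fosb were lower. Jun (chr4:95049034-95052222, minus strand, GRCm38, as for all positions below) was the most abundant of the 10 genes, with a mean of 97.8 FPKM over the libraries. In PBS 1 to 3 it stood at 114, 115 and 122 FPKM, in vehicle 12 to 78 at 84.5, 95.05, 89.1 and 79.2 FPKM, and in GGsTop 1 to 4 at 98.6, 86.1, 120 and 71.0 FPKM. Every vehicle library lay below every PBS library, while GGsTop 3 was close to the PBS libraries and GGsTop 4 was the lowest of all. The PBS libraries were closely grouped for Jun, with a SD of log2 values that was higher than that of only 3.51% of the genes tested.

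Junb (chr8:84974484-84978718, minus strand), which pairs with Fos proteins and often restrains Jun, was the gene with the third highest mean, 53.6 FPKM. It stood at 55.8, 64.3 and 94.0 FPKM in PBS 1 to 3, at 49.9, 45.4, 38.1 and 37.1 FPKM in vehicle 12 to 78, and at 51.4, 57.8, 43.7 and 51.9 FPKM in GGsTop 1 to 4. PBS 3 was far above the rest, and the vehicle group lay wholly below the PBS group. An exon of Junb shares 173 bases with Prdx2 on the opposite strand and an exon of Jun shares 232 bases with Junos, and whether the counting used strand is not stated, so reads from these parts cannot be assigned to one gene.

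Fos (chr12:85473890-85477273, plus strand) stood at 20.5, 38.1 and 27.2 FPKM in PBS 1 to 3, at 29.8, 19.99, 16.9 and 17.6 FPKM in vehicle 12 to 78, and at 17.6, 20.4, 15.3 and 22.0 FPKM in GGsTop 1 to 4. PBS 2 and vehicle 12 were the highest libraries, and the groups overlapped in each comparison. Fosb (chr7:19302696-19310051, minus strand) was among the lowest of the 10, and its PBS libraries spread 9.55-fold. It stood at 0.968, 9.24 and 1.20 FPKM in PBS 1 to 3, at 2.30, 3.19, 1.74 and 2.14 FPKM in vehicle 12 to 78, and at 1.88, 1.88, 1.35 and 2.67 FPKM in GGsTop 1 to 4. PBS 1 and PBS 3 were the lowest libraries for Fosb while PBS 2 was the highest by 2.89-fold.

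The Egr genes were lower than the AP-1 subunits Jun, Junb and Fos. Egr1 (chr18:34859823-34864984, plus strand), the best known of the family, stood at 11.1, 22.5 and 11.9 FPKM in PBS 1 to 3, at 17.4, 9.11, 7.34 and 6.79 FPKM in vehicle 12 to 78, and at 6.68, 8.21, 5.63 and 10.3 FPKM in GGsTop 1 to 4. All 4 GGsTop libraries lay below all 3 PBS libraries, whereas vehicle 12 was second to PBS 2. Egr2 (chr10:67535475-67542188, plus strand), which serves in myelinating glia and in T cells, stood at 1.70, 3.61 and 2.45 FPKM in PBS 1 to 3, at 4.73, 2.40, 2.603 and 2.84 FPKM in vehicle 12 to 78, and at 2.54, 3.08, 2.54 and 2.31 FPKM in GGsTop 1 to 4. Vehicle 12 was the highest library, and no pair of groups was separated. Egr3 (chr14:70077203-70082614, plus strand) stood at 2.12, 7.47 and 1.27 FPKM in PBS 1 to 3, at 3.13, 2.74, 3.05 and 1.75 FPKM in vehicle 12 to 78, and at 1.67, 1.83, 0.719 and 1.82 FPKM in GGsTop 1 to 4. PBS 2 was 2.38-fold above the next library and GGsTop 3 was the lowest.

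Atf3 (chr1:191170296-191218039, minus strand) stood at 7.40, 33.7 and 7.40 FPKM in PBS 1 to 3, at 15.3, 17.9, 16.8 and 15.9 FPKM in vehicle 12 to 78, and at 14.5, 22.8, 10.3 and 28.8 FPKM in GGsTop 1 to 4. The vehicle libraries were tight and lay above PBS 1 and PBS 3 but below PBS 2. Nr4a1 (chr15:101254269-101274795, plus strand) stood at 52.7, 123 and 48.5 FPKM in PBS 1 to 3, at 34.1, 40.3, 27.9 and 20.1 FPKM in vehicle 12 to 78, and at 41.4, 40.9, 22.2 and 45.2 FPKM in GGsTop 1 to 4. Every PBS library was above every other library for Nr4a1. Ier2 (chr8:84661331-84662852, minus strand) stood at 71.0, 61.3 and 105 FPKM in PBS 1 to 3, at 43.5, 42.8, 37.99 and 35.1 FPKM in vehicle 12 to 78, and at 55.9, 55.4, 63.5 and 42.8 FPKM in GGsTop 1 to 4. The vehicle group lay below the PBS group, and GGsTop 4 alone fell among the vehicle libraries.

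In the order of mean levels over the libraries, Jun was followed by Ier2 (55.9 FPKM), Junb (53.6), Nr4a1 (45.1), Fos (22.3), Atf3 (17.3), Egr1 (10.6), Egr2 (2.80), Fosb (2.597) and Egr3 (2.51). Between neighbours in this order, the ranges of the libraries did not overlap in any group for Jun over Ier2 and for Egr1 over Egr2. Nr4a1 stood wholly above Fos in PBS and GGsTop, and Atf3 above Egr1 in GGsTop. The other neighbours overlapped in every group. The within-group SD of log2 values was larger than that of 97.8% of the genes tested for Atf3, 97.7% for Fosb, 96.3% for Egr3, 95.6% for Nr4a1 and 94.5% for Egr1. For Jun it was larger than that of 53.4% of them. Within single groups the percentile for Atf3 was 98.8 in PBS, 29.7 in vehicle and 96.5 in GGsTop, so its spread was not shared by all groups.

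The OVA/LPS/Vehicle group was compared with the PBS group to ask what OVA and LPS exposure with vehicle left behind in the airway. Ier2, Junb, Nr4a1 and Jun were lower in the vehicle group, and none of the 10 genes was higher at an adjusted p under 0.05 (limma on log2(FPKM + 1), Benjamini-Hochberg over 14004 genes). The background for lower calls was 22.1% of all genes tested and 15.9% for higher calls, so 4 of 10 lower calls stand beside a broad shift. The same 4 genes had vehicle libraries wholly below the PBS libraries, against 25.4% of all genes. The median log2 fold change of the 10 genes was -0.42, beside -0.01 for all genes tested.

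Ier2 fell by 0.94 on the log2 scale (SE 0.18, limma adjusted p = 0.00528), with means of 79.1 ± 23.02 FPKM in PBS and 39.9 ± 3.98 FPKM in vehicle (SD, n = 3 and 4). It kept its call in all 11 fits that left out a library. After correction for GC content the difference was -0.57 (limma adjusted p = 0.0266). With that correction and without PBS 3, whose GC slope stood apart, it was -0.46 and no longer called (limma adjusted p = 0.114). Junb fell by 0.71 (SE 0.18, limma adjusted p = 0.0122), also in all 11 of those fits, but after GC correction the difference was -0.35 (limma adjusted p = 0.0798). These are the genes with the highest GC content of the 10, Junb at 62.6% and Ier2 at 60.9%.

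Nr4a1 had the largest fitted difference, -1.17 (SE 0.35, limma adjusted p = 0.0226), with means of 74.6 ± 41.7 FPKM in PBS and 30.6 ± 8.63 FPKM in vehicle (SD, n = 3 and 4). Without PBS 2 it was -0.75 (limma adjusted p = 0.0595), without vehicle 56 it was -1.14 (0.0518) and without vehicle 78 it was -0.99 (0.0594), so its call rested on these libraries. After GC correction it was -0.85 (limma adjusted p = 0.107). Jun fell by 0.43 (SE 0.16, limma adjusted p = 0.0482), and that call was kept only when GGsTop 3 or GGsTop 4 was left out. The other 9 fits without a library gave log2 differences from -0.47 to -0.39 with limma adjusted p up to 0.126, and GC correction gave -0.16 (limma adjusted p = 0.509).

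The other 6 genes did not pass the test. Egr1 differed by -0.56 (SE 0.32, limma adjusted p = 0.177) and Fos by -0.41 (SE 0.23, limma adjusted p = 0.164). Without vehicle 12 the Egr1 difference was -0.83 (limma adjusted p = 0.0362). Atf3 differed by 0.37 with a 95% interval from -0.63 to 1.38, and Fosb by -0.10 with an interval from -1.10 to 0.90. Without PBS 2, Atf3 was higher in the vehicle group by 1.06 (limma adjusted p = 0.0167) and Fosb by 0.67 (limma adjusted p = 0.0195). The intervals for Egr2 (-0.24 to 0.66) and Egr3 (-0.92 to 0.70) also covered 0.

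**Figure D2:**
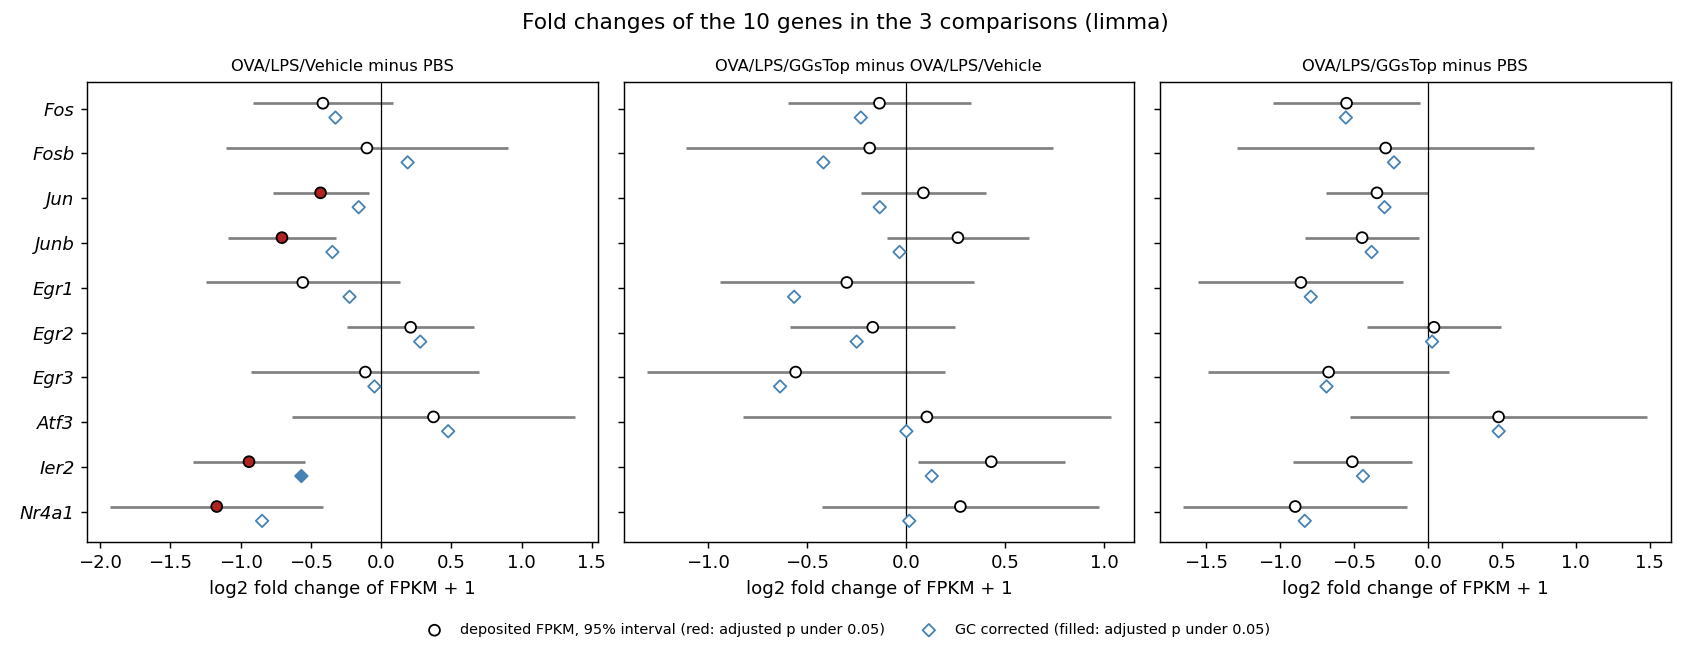
Log2 fold change of FPKM + 1 for each gene (rows) in the 3 comparisons, with circles and lines for the deposited values and their 95% intervals and diamonds for values corrected for GC content. Ier2, Junb, Nr4a1 and Jun are called in the comparison of vehicle with PBS, Ier2 alone after the correction, and no gene is called in the other panels.

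GGsTop was compared with vehicle among the mice given OVA and LPS to ask what the inhibitor changed. None of the 10 genes was called in limma at an adjusted p under 0.05, and the background was 1.81% of all genes lower and 6.9% higher. At an unadjusted p under 0.05, 1 of the 10 genes passed, against 30.8% of all genes tested. This was Ier2, with 39.9 ± 3.98 FPKM under vehicle and 54.4 ± 8.55 FPKM under GGsTop (SD, n = 4 in each), a log2 difference of 0.43 (SE 0.17, limma adjusted p = 0.116). GGsTop 4 at 42.8 FPKM overlapped the vehicle libraries. With PBS 3 left out of the shared estimate of spread, Ier2 passed (limma adjusted p = 0.0312), while after GC correction the difference was 0.13 (limma adjusted p = 0.628). The median difference of the 10 genes was -0.02, beside 0.03 for all genes. Of the 10 differences, 5 were above 0 and the intervals were wide for the variable genes, for example -1.31 to 0.19 for Egr3 and -0.82 to 1.04 for Atf3. After GC correction 7 of the 10 were below 0 and none was called. Egr1 was then at -0.57 (limma adjusted p = 0.284) and Egr3 at -0.64 (limma adjusted p = 0.297).

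GGsTop was then set beside PBS. None of the 10 genes was called in limma, and the background was 0.821% lower and 2.06% higher. At an unadjusted p under 0.05, 6 genes were lower (Fos, Jun, Junb, Egr1, Ier2 and Nr4a1), against 9.79% of all genes. The GGsTop libraries lay wholly below the PBS libraries for Egr1 and Nr4a1, 2 of 10, against 7.54% of all genes. Egr1 stood at 15.2 ± 6.37 FPKM in PBS (SD, n = 3) and 7.69 ± 2.01 FPKM under GGsTop (SD, n = 4), a log2 difference of -0.86 (SE 0.32, limma adjusted p = 0.160). Nr4a1 differed by -0.89 (SE 0.35, limma adjusted p = 0.178). Without PBS 2 the difference was -0.55 for Egr1 and -0.47 for Nr4a1. In that fit Fos went from -0.55 to -0.325 and Egr3 from -0.67 to -0.11, so part of these differences rested on PBS 2. The difference of Ier2 grew in size instead, as given below. The median difference of the 10 genes was -0.48, beside 0.01 for all genes. A fit of the PBS and GGsTop libraries alone called 9 genes lower and 30 higher, against 115 and 288 with all 11 libraries. Pairing libraries of one number in a replicate block in that fit, to which GGsTop 4 adds nothing as it has no partner, called 25 and 70, and none of the 10 genes was among them. With the block and GC correction together, Egr1 was called at -0.91 (limma adjusted p = 0.0482). Without PBS 2, Atf3 was higher in the GGsTop group by 1.16 (limma adjusted p = 0.0351) and Ier2 was lower by a log2 difference of -0.67 (limma adjusted p = 0.0435). The comparisons of vehicle and of GGsTop with PBS share the PBS libraries and their values are not independent.

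Correlations between the genes across libraries differed between subsets. Over the 11 libraries Fos and Egr1 had a Pearson r of 0.97 on log2 values, the highest of the 45 pairs, and 0.95 without PBS 2. The 21 pairs among Fos, Fosb, Egr1, Egr2, Egr3, Atf3 and Nr4a1 had a median r of 0.61 and were all above 0. The 3 pairs among Jun, Junb and Ier2 had a median of 0.81, and the 21 pairs between these sets a median of 0.04. On deviations from group means the median of those 3 pairs was 0.57 and Jun with Junb was at -0.11, so part of that value came from differences between groups. The median of the 21 pairs among the 7 genes was then 0.72. After GC correction Jun with Junb was at 0.13. These sets were drawn after the values were seen. Without PBS 2 the median over all 45 pairs was 0.17, against 0.44 with it, so much of the shared pattern rested on 1 library. Fosb and Atf3 kept a r of 0.81 without PBS 2. These are descriptions over 11 libraries that share depth and GC differences, with no p.

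**Figure D3:**
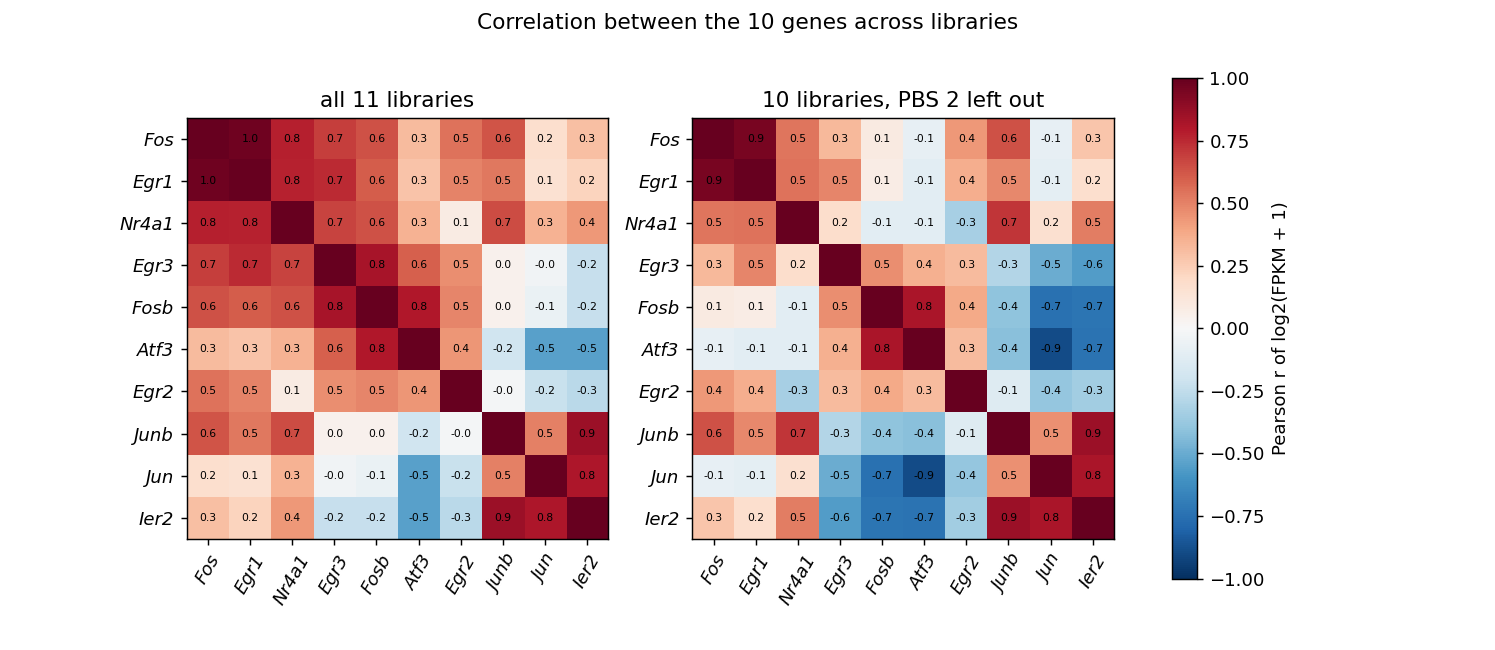
Pearson r of log2(FPKM + 1) between the 10 genes, with all 11 libraries on the left and without PBS 2 on the right, where red is above 0 and blue is below 0. The block of Jun, Junb and Ier2 stays above 0 in both, and many pairs of the other 7 genes fade without PBS 2.

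The genes outside the 10 whose pattern was most like the mean of their standardised log2 values, among 12985 genes, were Nptxr (r = 0.90 over 11 libraries), Mkrn2 (0.84), Siglech (0.83), Slc9a7 (0.82) and Ttl (0.82). Leaving out PBS 2 lowered Siglech to -0.00 and Mkrn2 to 0.56, whereas the lowest value of Nptxr with any library left out was 0.89. Nptxr stood between 0.544 and 2.01 FPKM. 

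Markers of several cell types and tissues moved with some of the 10 genes. The pairs named here were picked after seeing all 180 combinations of 18 marker lists and 10 genes. The summed FPKM of the cardiac muscle markers Myh6, Tnnt2 and Actc1 was 91.4, 787 and 104 in PBS 1 to 3, from 364 to 516 in the vehicle libraries and from 294 to 1054 in the GGsTop libraries. Its 3 lowest and 3 highest libraries were those of Atf3 (r = 0.93, n = 11). None of the 3 cardiac markers was at 0 in all libraries. Atf3 also moved with basal cell markers (r = 0.83) and skeletal muscle markers (0.82), so its pattern was not tied to the cardiac sum alone. The club cell sum ran against Egr1 (r = -0.89) and Fos (-0.84). That sum was nearly all Scgb1a1 (26145 to 37867 FPKM in PBS, 31370 to 47905 in vehicle), so these values describe mainly that gene. Scgb3a2 was wholly higher in vehicle than in PBS (1093 to 1914 against 313 to 867 FPKM). Cyp2f2 reached lower in vehicle (617 to 896 against 814 to 1010 FPKM). The endothelial markers Pecam1, Cdh5 and Kdr summed to 392 to 639 in PBS, 306 to 348 in vehicle and 204 to 448 in GGsTop, and moved with Jun (r = 0.91, n = 11) and Ier2 (0.81). Alveolar epithelial markers summed to 9636 to 15410 in PBS and 4823 to 8031 in vehicle, and moved with Jun (r = 0.84) and Ier2 (0.80). Smooth muscle markers summed to 519 to 702 in PBS and 438 to 475 in vehicle. Their Pearson r was 0.59 to Nr4a1 and 0.42 to Junb, with a Spearman rho of 0.80 and 0.77. The sums of the endothelial, alveolar and smooth muscle markers were thus wholly lower in vehicle than in PBS, as were Jun, Junb, Ier2 and Nr4a1. Not every single marker followed its sum. Pecam1, Myh11 and Cnn1 overlapped between these groups, and Lamp3 reached higher in vehicle (50.7 to 87.1 FPKM) than in PBS (47.6 to 74.2 FPKM). Thymocyte markers Rag1, Dntt and Cd8b1 summed to 43.5 in vehicle 12, the library highest for Egr2, and to at most 5.91 in the others. Their part in the results was not tested.

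**Figure D4:**
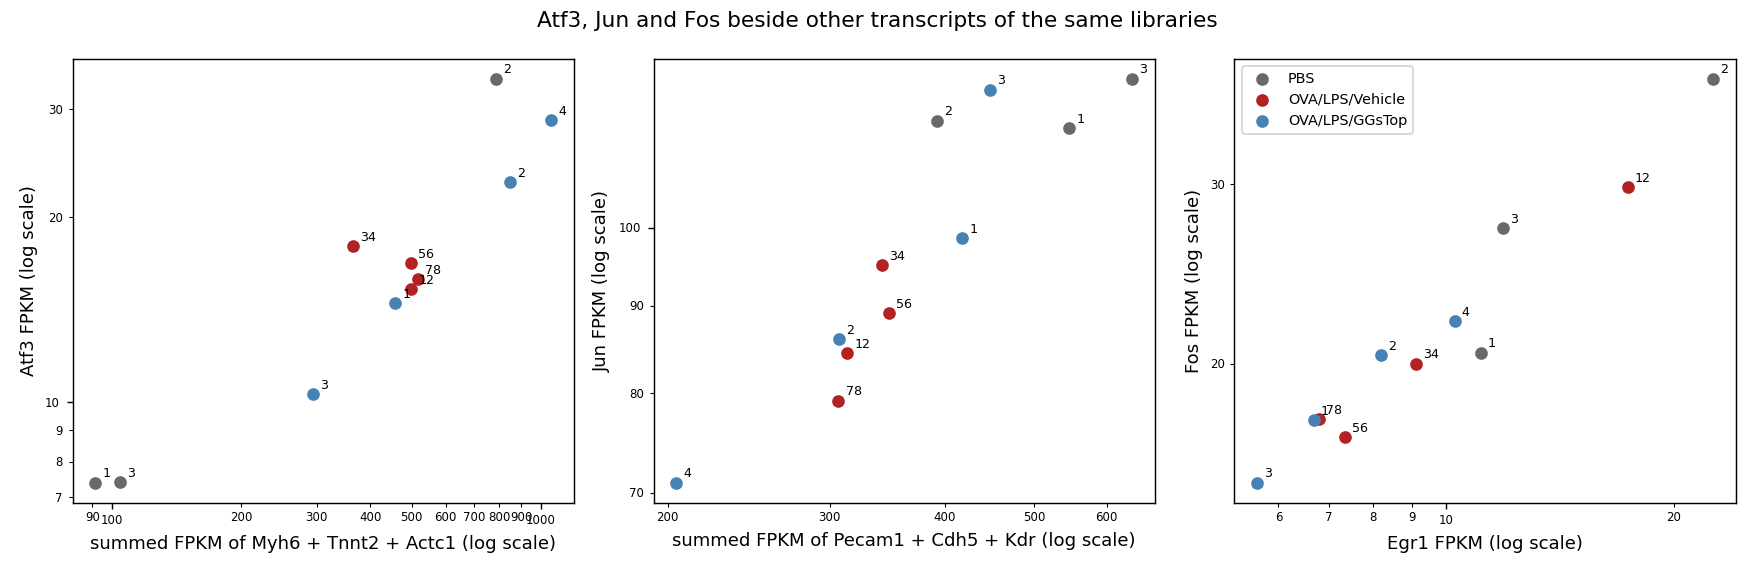
FPKM of Atf3 against summed cardiac markers, Jun against summed endothelial markers and Fos against Egr1, on log axes, with 1 point per library and its number. The libraries lowest for the cardiac sum, PBS 1, PBS 3 and GGsTop 3, are lowest for Atf3 too, and PBS 2 and vehicle 12 are the highest libraries for both Fos and Egr1.

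Other genes of the same system were described from lists. Of 15 AP-1 and ATF relatives tested, 4 were lower and 1 was higher in vehicle than in PBS, and of 17 other immediate early factors 3 were lower and 1 was higher, beside a background of 38% called in either direction. Ier3, a stress response gene, fell from 146 ± 44.1 to 57.3 ± 11.2 FPKM (SD, n = 3 and 4), a log2 difference of -1.30 (SE 0.28, limma adjusted p = 0.00688), and -1.08 after GC correction (limma adjusted p = 0.0265). Snai1, a zinc finger repressor of epithelial genes, fell by 1.72 on the log2 scale (SE 0.31, limma adjusted p = 0.00443). Among relatives of the AP-1 family, Atf5 fell by 0.82 (limma adjusted p = 0.0076) and Mafk by 0.72 (limma adjusted p = 0.0115). After GC correction Atf5 was at -0.45 (limma adjusted p = 0.0494) and Mafk, no longer called, at -0.42 (limma adjusted p = 0.0803). Klf2 and Klf4, among the most abundant of the other factors at 160 ± 12.8 and 73.8 ± 3.24 FPKM in PBS (SD, n = 3), did not pass, with differences of -0.40 and -0.29.

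Effectors and feedback inhibitors were called lower for 11 of 40 genes and higher for 4, where the background was 22.1% lower and 15.9% higher, so their share called in either direction, 37.5%, was near the 38% of all genes. Ccn1, a matrix protein gene, fell from 131 ± 18.5 to 64.4 ± 13.98 FPKM (SD, n = 3 and 4), a log2 difference of -1.03 (SE 0.16, limma adjusted p = 0.00365). Nab2, a corepressor of Egr proteins, fell by 0.72 (limma adjusted p = 0.00337), and Plk3, a stress kinase, by 0.85 (limma adjusted p = 0.00348). Dusp1, a phosphatase that switches off MAP kinases, fell by 0.75 (limma adjusted p = 0.0151), a call that GC correction ended (-0.55, limma adjusted p = 0.064). Btg1, an antiproliferative gene, rose by 0.73 (limma adjusted p = 0.00365). GC correction kept the calls of Nab2, Plk3 and Btg1 but brought them to -0.35, -0.49 and 0.36. After it 6 genes of this list were lower and 5 higher, beside 12.9% and 7.87% of all genes.

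Upstream kinases and factors were lower for 12 of 26 genes and higher for 3, beside 22.1% and 15.9% of all genes. Srf, serum response factor, fell by 0.60 (limma adjusted p = 0.029), Mapk3, the kinase ERK1, by 0.53 (limma adjusted p = 0.0216) and Rps6ka1, a kinase downstream of ERK, by 0.59 (limma adjusted p = 0.00395). After GC correction 6 of the 26 were lower and none higher, beside 12.9% and 7.87% of all genes. Srf (-0.28, limma adjusted p = 0.302), Mapk3 (-0.19, limma adjusted p = 0.378) and Rps6ka1 (-0.26, limma adjusted p = 0.0517) all lost their calls. Crtc1 of the same list lost its call too (-0.30, limma adjusted p = 0.0572). Mef2d (-0.43, limma adjusted p = 0.0246), Mapk14 (-0.34, limma adjusted p = 0.034) and Crtc3 (-0.28, limma adjusted p = 0.0382) kept theirs. Known AP-1 targets were lower for 5 of 12 genes, and none was higher, beside the same 22.1% and 15.9%. Mmp3, a matrix metalloproteinase, fell by 1.10 (limma adjusted p = 0.0142), and 2 of the 12 were lower after GC correction, beside 12.9% of all genes.

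Between GGsTop and vehicle, 1 of 15 AP-1 relatives, 1 of 17 other factors and 3 of 40 effectors were higher. So were 5 of 26 upstream genes and 1 of 12 AP-1 targets. Lower were 3 of the 40 effectors and 1 of the 26 upstream genes. Of all genes, 6.9% were called higher and 1.81% lower. Mafg, a small Maf partner, rose from 18.2 ± 1.22 to 27.3 ± 3.23 FPKM (SD, n = 4 in each), a log2 difference of 0.56 (SE 0.12, limma adjusted p = 0.0283). Nab2 rose by 0.56 (limma adjusted p = 0.0163), while Btg1 fell by 0.56 (limma adjusted p = 0.0204). The background called in either direction was 8.71%, and none of these lists held a call after GC correction. Set beside PBS, where 2.88% of all genes were called in either direction, the GGsTop libraries were lower for 4 of 40 effectors. No effector was higher, and the background was 0.821% lower. Of 17 other factors 1 was lower and 1 higher, and 1 of 12 AP-1 targets was lower. No AP-1 relative or upstream gene was called. Bhlhe40, a repressor of the circadian clock, was higher by 0.83 (limma adjusted p = 0.0131). Ccn1 was lower by a log2 difference of -0.98 (limma adjusted p = 0.0151). Ier3 (-1.26), Hbegf (-0.88), Plk2 (-0.72) and Plau (-0.60) were also called lower. GC correction left these list counts unchanged, beside 1.49% of all genes lower and 2.77% higher.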

How the data were processed

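Poly-A RNA of 11 airway libraries was sequenced on an Illumina NovaSeq. The authors deposited FPKM per gene, that is fragments scaled by exon length and library total, with 1 column per library. The submitters' processing notes name cutadapt 1.15, HISAT2 2.0.5, HTSeq 0.9.1 and the build mm39. Positions here are GENCODE M21 or RefSeq on GRCm38 and were not converted. The strand setting is not given in the sources used here.

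Identifiers matched a symbol for 21795 of 21899 genes, and 3627 genes were at 0 in all libraries. The test took 14004 genes that averaged 0.5 FPKM or more, on the scale log2(FPKM + 1), with limma 3.58.1 (R 4.3.3, empirical Bayes with trend) over all 11 libraries, two-sided, with Benjamini-Hochberg adjustment and a threshold of 0.05. The study's own test ran on counts. A fold change on the log2(FPKM + 1) scale understates the change of low genes. For the GC correction, a spline with 5 degrees of freedom of each library's deviations from gene means on transcript GC content was subtracted. From 97.7% to 97.9% of values per library came out as whole fragments within 0.02, so voom was also run on recovered fragments. It called 2509 genes lower and 2837 higher in vehicle against PBS. The fit was tested on simulated data.

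PBS and OVA/LPS/GGsTop share the numbers 1 to 3 in the labels, which do not say that they mark a pair. Deviations of same-numbered libraries correlated at 0.37, 0.43 and 0.43, so a replicate block was fitted too, although PBS 1 correlated best with GGsTop 3 (0.46) and PBS 2 with GGsTop 4 (0.64). Nothing says which mice the libraries came from, and p-values measure the spread between these libraries. Named genes are the 10 members, from each list the 3 with the highest mean FPKM and up to 3 per comparison with the smallest p among those called, and the 5 most like the members' mean. The text gives a selection of these. A gene that the rule names is not reported here. The members and lists were chosen with earlier results of these data known.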

Additional observations from a re-analysis of the deposited data

Results flagged for a closer look

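Among the 20 sets of 4 libraries examined (10 genes in the vehicle and GGsTop groups), 2 had a library farther from the others than Dixon's 95% critical value allows, by the ratio of its gap to the nearest library over the range of log2 values. Chance marks about 1 in 20 such sets. Egr3 was low in GGsTop 3, with 0.719 FPKM against 1.67 to 1.83 in the other GGsTop libraries (ratio 0.886). Nr4a1 was low in the same library, with 22.2 FPKM against 40.9 to 45.2 (ratio 0.860). The PBS group of 3 libraries was too small for this ratio.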

How the results depend on the processing

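The 3 comparisons are vehicle minus PBS (A), GGsTop minus vehicle (B) and GGsTop minus PBS (C). The deposited values gave 4, 0 and 0 of the 10 genes called, and 3096 genes lower and 2231 higher in A, 254 and 966 in B, and 115 and 288 in C. The cause was not tested for any change below.

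GC correction gave 1 of the 10 genes in A, with 1803 genes lower and 1101 higher in A, 22 and 34 in B, and 208 lower and 387 higher in C. The next 3 settings were added after seeing the data. GC correction without PBS 2 gave 3 of the 10 genes in A, Ier2 lower (-0.68) and Fosb (0.98) and Atf3 (1.145) higher, and 1 in C, Atf3 (1.147) higher, with 59 and 121 genes in B and 854 and 821 in C. GC correction without PBS 3 gave 0 of the 10 genes in A, with 156 and 152 genes in A, 124 and 173 in B and 16 and 43 in C, and Ier2 was then at -0.46 in A (limma adjusted p = 0.114). Voom on recovered fragments, without Ier2, gave 2 of the 10 genes in A and 595 genes higher in B. Array weights gave 6 of the 10 genes in A, the same 4 lower and Egr2 (0.41) and Atf3 (0.87) higher, and 1 in B, with 3443 genes higher in A, 1982 and 3232 in B, and 1178 and 1379 in C. The weights were 3.89 for PBS 1, 0.43 for PBS 2 and 0.15 for PBS 3, so the PBS group of that fit rested largely on PBS 1. A fit of only the 2 groups compared gave 1 of the 10 genes in B, with 1406 and 2119 genes in B and 9 and 30 in C. Rescaling to the same FPKM total gave 1232 genes higher in A, 155 and 2026 in B and 243 lower in C, and rescaling to the same median gave 344 higher in B. Without a filter on low values C had 61 and 147 genes. The replicate block added to the fit of PBS and GGsTop alone raised those 9 and 30 genes in C to 25 and 70. Together with GC correction the block called 1 of the 10 genes, Egr1, and it changed no other call.

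Leaving out each library in turn gave 2 to 4 of the 10 genes in A, 0 to 1 in B and 0 to 2 in C. Genes lower and higher ranged from 1889 to 3395 and from 1175 to 3045 in A, from 4 to 1447 and from 20 to 2144 in B, and from 8 to 642 and from 21 to 955 in C. The lowest counts were reached without PBS 3 in A, GGsTop 1 in B and PBS 1 in C, and the highest without PBS 2 in A and C and without PBS 3 in B. The median r over 45 pairs of the 10 genes, 0.44, ranged from 0.17 (without PBS 2) to 0.49, and was 0.22 without PBS 2 and PBS 3.

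Differences that turned sign all belonged to genes not called with the deposited values. In A, Fosb was at 0.023 with a pseudocount of 0.1, 0.19 with GC correction, 0.98 with that and without PBS 2, 0.54 with array weights and 0.16 with voom, and ranged from -0.52 to 0.67 with a library left out. With GC correction and without PBS 2, Egr1 was at 0.11 and Egr3 at 0.49 in A. Egr3 was at 0.055 with voom and ranged from -0.51 to 0.45 with a library left out. In B, GC correction put Jun at -0.13 and Junb at -0.032, also without PBS 2 or PBS 3, and array weights put Atf3 at -0.038. With a library left out, Fos ranged from -0.22 to 0.037, Jun from -0.039 to 0.21 and Atf3 from -0.12 to 0.35 in B. In C, Fosb was at 0.28 with array weights and 0.56 with GC correction and without PBS 2, and Egr2 at -0.012 with the same FPKM total. With a library left out, Fosb ranged from -0.71 to 0.48 and Egr2 from -0.14 to 0.24 in C.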
